A study of Mus musculus with 8 samples.

Results

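The 2 large clusters of striatal projection neurons, named Drd1+ neuron and Drd2+ neuron in the deposited annotation, were compared with each other inside each mouse. Raw counts were summed over the nuclei of each cluster of each mouse, and all 32 mice gave a library of both, so that 64 libraries formed 32 pairs. The 2 clusters held 28598 of the 55672 annotated nuclei, 15395 in the Drd1+ and 13203 in the Drd2+ cluster. Nuclei came from frozen striatum of mice 12 weeks old of 8 inbred strains, namely A/J, C57BL/6, 129S1/SvImJ, NOD/ShiLtJ, NZO/HlLtJ, CAST/EiJ, PWK/PhJ and WSB/EiJ. In each of 4 batches 1 mouse per strain was pooled, 4 of them male and 4 female, and RNA and open chromatin were read from the same nuclei; only the RNA is described here. The C57BL/6 substrain is named differently in the labels and the deposited cell table. The same mouse gives both libraries of a pair, so strain, sex and pool are equal on both sides.

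The striatum, the input nucleus of the basal ganglia, consists mostly of GABAergic projection neurons of 2 kinds. Direct pathway neurons project to the basal ganglia output nuclei and carry the dopamine receptor D1, which stimulates cyclic AMP formation; they make the peptides dynorphin and substance P. Indirect pathway neurons project to the external pallidum, carry the dopamine receptor D2, which inhibits cyclic AMP formation, and the adenosine receptor A2a, which stimulates it, and make enkephalin. The comparison asks which genes differ between the 2 kinds in the same animal, whatever its strain.

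The 2 kinds of neuron differed by few genes of large size and many of small size. Of 32285 genes, 11937 had enough counts to be tested, and 3764 of these (31.5%) were called, that is, passed an adjusted p of 0.05 in edgeR's quasi-likelihood test with the mouse as block. Of the called genes 1870 (15.7% of those tested) were higher in Drd2+ and 1894 (15.9%) higher in Drd1+ neurons. Only 199 (1.67%) were called with a change of at least 2-fold, 91 (0.762%) higher in Drd2+ and 108 (0.905%) in Drd1+ neurons. A change of at least 4-fold was called for 38 and 31 genes in the same order. In contrast, 3203 of the called genes (85.1%) differed by less than 0.5 on the log2 scale, and the median absolute log2 fold change of called genes was 0.19. The difference had the same sign in all 32 mice for 465 genes (3.9%), 242 (2.03%) higher in Drd2+ and 223 (1.87%) in Drd1+ neurons, and 153 of the 199 genes of at least 2-fold were among them. For 70 genes (0.586%) the range of the 32 Drd1+ libraries did not overlap that of the 32 Drd2+ libraries. Without the filter on low counts, 458 of 27679 genes were called with at least a 2-fold change, 181 higher in Drd2+ and 277 in Drd1+ neurons.

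**Figure D1:**
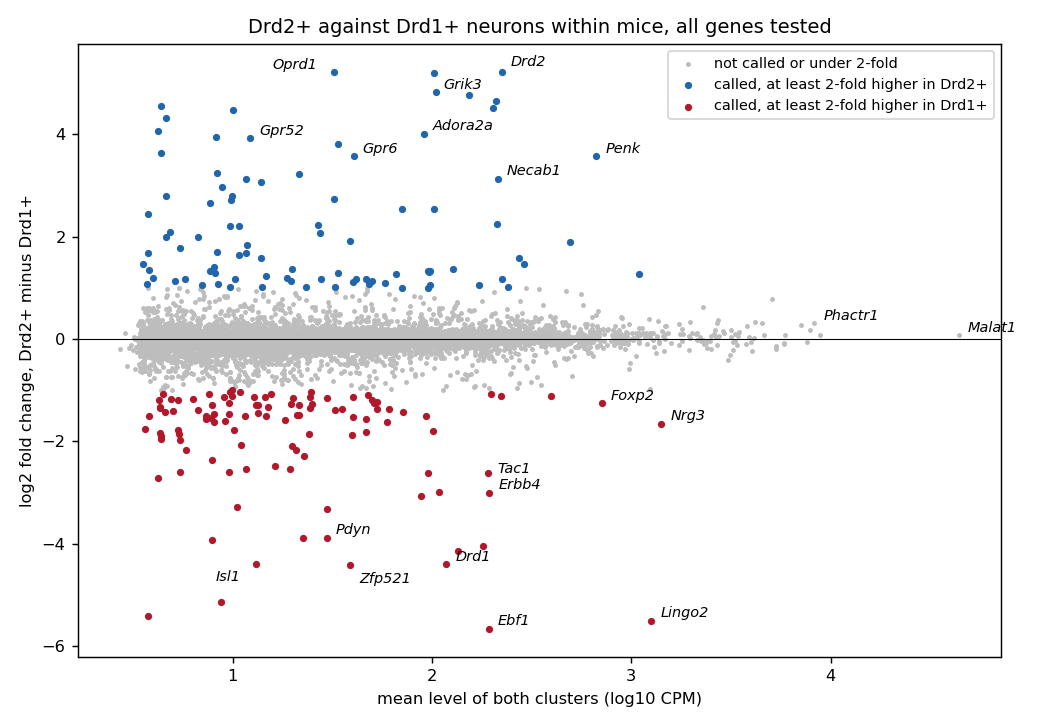
Log2 fold change (Drd2+ minus Drd1+) of the 11937 genes tested against their mean level in both clusters (log10 CPM, counts scaled to the same library total); blue and red points are the 91 and 108 genes called with at least a 2-fold change. Most genes lie close to 0, and Drd2, Oprd1 and Grik3 at the top and Ebf1 and Lingo2 at the bottom stand farthest from it among the labelled genes.

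The nuclei were grouped by the authors, and genes that served to form the clusters had to differ between them. The p-values therefore describe the size of a difference relative to its spread over the mice, not whether the 2 clusters are distinct. Drd1 and Drd2 are a check of the names only. Each library held 283 to 1198 Drd1+ nuclei (median 456.5) or 262 to 949 Drd2+ nuclei (median 393.5), with 1710451 to 9416806 and 1251786 to 6803437 counts. Drd2+ nuclei were fewer in 29 of 32 mice, with a geometric mean ratio of 0.864; the 3 mice with more Drd2+ nuclei were all NOD/ShiLtJ, with 423 against 382, 317 against 283 and 437 against 373 nuclei, and the other NOD/ShiLtJ mouse had 319 against 320. Their median count of unique molecules per nucleus (UMIs) was lower in 32 of 32 mice, with a median over mice of 6059.5 against 6583.75. In both measures the p of the two-sided permutation test was 1e-05, the smallest that 100000 sign flips can give. Genes detected per nucleus were fewer too, 2532 against 2694.5 as the median over mice (32 of 32 mice, permutation p = 1e-05, the smallest possible). Mitochondrial transcripts took 1.52% ± 0.213 of counts in Drd2+ and 1.43% ± 0.175 in Drd1+ neurons (SD, n = 32 mice; higher in 25 of 32, permutation p = 6e-05). The part of nuclei recovery in the unequal numbers was not tested.

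The 2 clusters were set against lists of known markers of each kind. All 17 tested genes of the list of known indirect pathway markers were higher in Drd2+ neurons, 14 of them at least 2-fold, and 14 of the 15 tested genes of the direct pathway list were higher in Drd1+ neurons, 13 of them at least 2-fold. Of all genes tested, 15.7% and 15.9% were higher in Drd2+ and Drd1+ neurons, 0.762% and 0.905% at least 2-fold. In the direct pathway list the exception was Calb1, a calcium buffer, at a log2 fold change of 0.09 (SE 0.032). These lists were drawn up with earlier results of the data known and are no independent evidence. Over all genes tested the median absolute log2 fold change was 0.074, against 3.56 and 2.61 in the 2 lists.

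Marker transcripts of other cell types were present in both clusters, at sums far below those in the clusters of these cell types. The 7 oligodendrocyte markers summed to a median of 1330 CPM (1053 to 1606) in Drd2+ and 1249 CPM (1002 to 1431) in Drd1+ libraries, against 21849 in the oligodendrocyte cluster; Drd2+ was higher in 26 of 32 mice. The 5 markers of oligodendrocyte precursors summed to 39.1 CPM (16.8 to 89.3) against 30.6 (14.7 to 60.0), higher in 27 mice, and the 8 markers of other interneurons to 46.4 (35.2 to 75.7) against 44.1 (28.2 to 57.9), higher in 25. The 6 microglial markers went the other way, at 49.6 (36.6 to 71.4) against 55.5 CPM (41.4 to 74.5), and were higher in Drd2+ neurons in 4 of 32 mice. No marker was at 0 in all of these libraries together, and the part of such RNA in small differences was not tested.

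Promoter sequences are shown for 3 genes of the main lists described below, since the cyclic AMP cascade is the point at which the 2 dopamine receptors act in opposite directions and its transcription factor CREB is known to bind the palindrome TGACGTCA and variants such as TGCGTCA. Of the 35 genes named by the rule for largest and most alike differences, 25 had an entry in the RefSeq promoter table (GRCm38.p6). In the 250 bases before the start site, 3 of them held 1 of these motifs on either strand, here in capitals. Gpr6, higher in Drd2+ neurons, held it 78 bases before the start (minus strand, chr10:41072291-41072540), Isl1, higher in Drd1+ neurons, 43 bases before (minus strand, chr13:116309689-116309938), and Tac1, also higher in Drd1+ neurons, 199 bases before (plus strand, chr6:7554811-7555060).
Gpr6: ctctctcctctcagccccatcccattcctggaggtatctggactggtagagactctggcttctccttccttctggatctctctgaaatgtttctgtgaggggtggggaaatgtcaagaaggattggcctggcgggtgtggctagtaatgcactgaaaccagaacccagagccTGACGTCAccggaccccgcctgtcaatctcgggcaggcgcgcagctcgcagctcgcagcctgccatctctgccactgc
Isl1: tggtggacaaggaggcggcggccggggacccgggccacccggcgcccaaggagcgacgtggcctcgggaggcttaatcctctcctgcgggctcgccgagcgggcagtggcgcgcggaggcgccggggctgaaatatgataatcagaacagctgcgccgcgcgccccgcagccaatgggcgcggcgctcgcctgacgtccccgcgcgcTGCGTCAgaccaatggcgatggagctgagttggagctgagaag
Tac1: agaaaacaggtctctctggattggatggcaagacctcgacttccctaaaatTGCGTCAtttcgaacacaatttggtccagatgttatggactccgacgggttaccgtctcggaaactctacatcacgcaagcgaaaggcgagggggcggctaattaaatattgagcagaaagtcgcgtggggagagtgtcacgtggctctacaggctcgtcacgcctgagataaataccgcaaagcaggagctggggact

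In 300-base windows (250 bases before to 50 after the start) both motifs were rare, and the counts among genes that differed were 5 or fewer. TGACGTCA stood in 344 of 9065 tested genes with an entry (3.79%), in 1 of 62 genes at least 2-fold higher in Drd2+ (1.61%) and in 1 of 72 higher in Drd1+ neurons (1.39%). TGCGTCA stood in 411 of the 9065 (4.53%), in 0 of 62 and in 5 of 72 (6.94%). The palindrome bound by EBF factors such as Ebf1, searched with any base at its middle positions, stood in 114 of 9065 (1.26%), in 1 of 62 and in 1 of 72. Neither of the first pair of motifs contains the other, and a match is a description of the letters and no evidence of binding.

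Among dopamine receptors, Drd2 ranged from 294 to 540 CPM with a median of 446 in Drd2+ libraries, and from 3.68 to 28.2 with a median of 10.47 in Drd1+ libraries. Drd1 ranged from 166 to 339 CPM (median 216) in Drd1+ and from 5.12 to 20.8 (median 10.05) in Drd2+ libraries. The 2 ranges did not overlap for either gene, and the fold changes were 37.1 for Drd2 and 21.1 for Drd1. Oligodendrocytes, which should lack both receptors, held 15.2 CPM of Drd2 and 21.0 of Drd1 at a median of 1640 UMIs per nucleus, against 6505 and 5953 in Drd1+ and Drd2+ nuclei. The low side of both genes thus lay below the level in oligodendrocytes. Drd3, a D2-like receptor best known from the ventral striatum, was 3.42-fold higher in Drd1+ neurons (15.8 ± 7.84 against 4.51 ± 3.20 CPM, SD, n = 32), where oligodendrocytes held 0.141 CPM.

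The precursors of opioid peptides and tachykinins differed without overlap between the clusters. Penk, the enkephalin precursor, ranged from 668 to 2001 CPM (median 1147) in Drd2+ and from 57.9 to 227 (median 84.0) in Drd1+ libraries. Pdyn, the dynorphin precursor, ranged from 30.0 to 113 CPM (median 54.4) in Drd1+ and from 0 to 6.45 (median 3.36) in Drd2+ libraries. Tac1, the substance P precursor, ranged from 212 to 680 CPM (median 319) in Drd1+ and from 33.2 to 75.7 (median 52.7) in Drd2+ libraries. The fold changes were 11.8 for Penk, 14.7 for Pdyn and 6.13 for Tac1. Oligodendrocytes held 196, 7.53 and 105 CPM of the 3, more than the mean of the low cluster each time. Nts, the neurotensin precursor, was 7.78-fold higher in Drd2+ neurons (15.8 ± 11.3 against 1.93 ± 0.979 CPM), in 32 of 32 mice. Of 13 neuropeptide precursors tested, 4 were higher in Drd2+, 4 in Drd1+ neurons and 5 were not called. Thus 61.5% were called, against 31.5% of all genes. Only Penk, Nts, Pdyn and Tac1 changed at least 2-fold, as 1.67% of all genes did. This list and those below were chosen with earlier results of these data known.

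**Figure D2:**
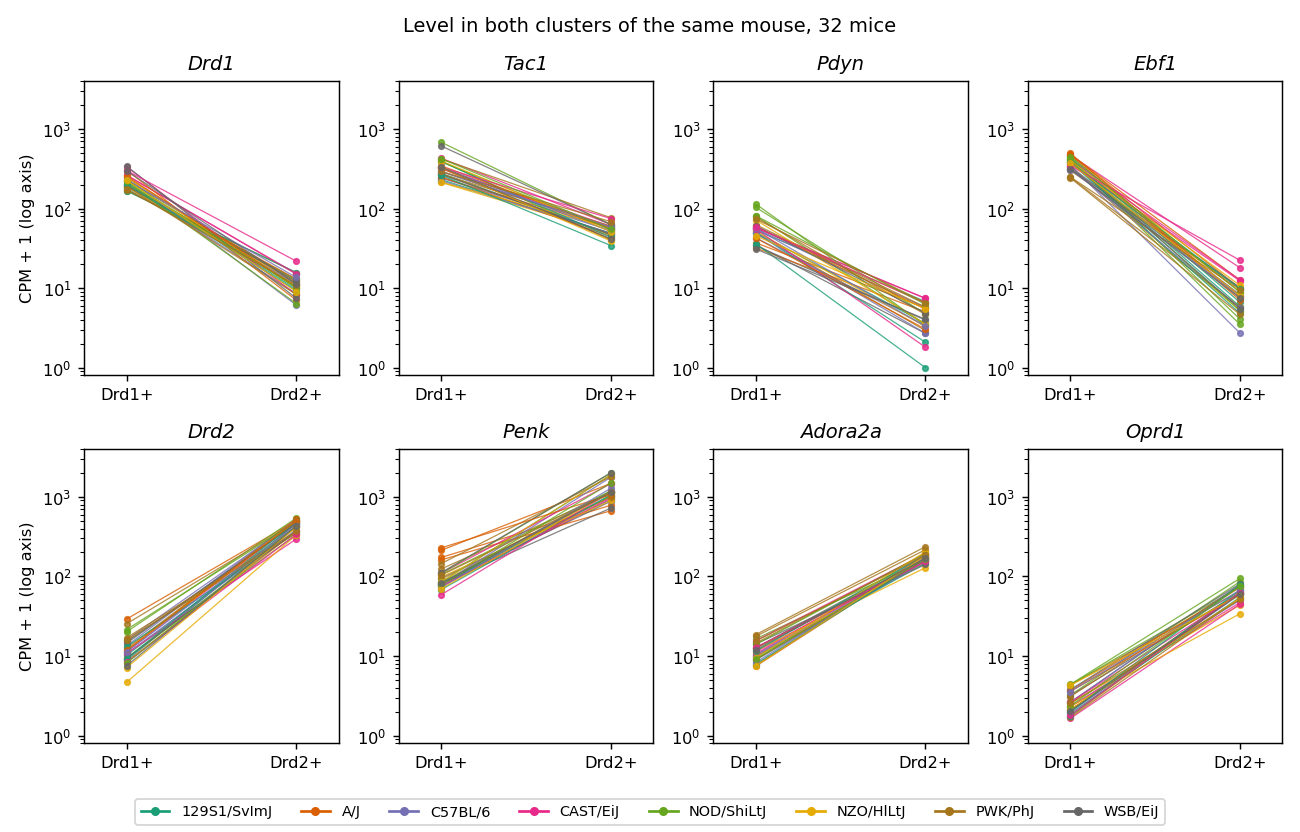
Level of 8 genes in the Drd1+ and the Drd2+ library of the same mouse (CPM plus 1, log axis); each line is 1 of 32 mice, coloured by strain. All lines of a panel slope the same way, and the 2 columns of points do not overlap in any panel.

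Of the opioid receptors only the delta type differed by a large factor. Oprd1, the delta opioid receptor at which enkephalin acts, ranged from 33.1 to 93.7 CPM (median 61.3) in Drd2+ and from 0.645 to 3.41 (median 1.45) in Drd1+ libraries, a 37.0-fold change. The mu receptor Oprm1 was not called (44.4 ± 13.2 CPM in Drd1+, 38.1 ± 14.4 in Drd2+), but its difference varied with strain, from a mean log2 difference of -0.69 in C57BL/6 to 0.48 in NOD/ShiLtJ mice (interaction adjusted p = 0.029 by edgeR). The kappa receptor Oprk1, the target of dynorphin, was 1.24-fold higher in Drd1+ neurons. The cannabinoid receptor Cnr1 was not called (285 ± 85.3 and 277 ± 76.8 CPM). Of 5 opioid and cannabinoid receptors tested, 1 was higher in Drd2+, 2 in Drd1+ neurons, and 2 were not called (60% called against 31.5% of all genes).

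Adora2a, the A2a receptor, ranged from 128 to 236 CPM (median 168) in Drd2+ and from 6.45 to 17.6 (median 10.4) in Drd1+ libraries, with no overlap and a 16.1-fold change. Adora1, the A1 receptor with the opposite coupling, was not called and had means of 31.0 and 30.8 CPM. The purine receptor P2ry1 was 6.93-fold higher in Drd2+ neurons. Of 6 adenosine and purine receptors tested, 2 were higher in Drd2+, 3 in Drd1+ neurons and 1 was not called (83.3% called against 31.5% of all genes), and those higher in Drd1+ neurons changed less than 2-fold. The adenosine kinase Adk, which clears adenosine, was 4.75-fold higher there (352 ± 61.0 against 74.0 ± 14.8 CPM), without overlap. Chrm3, a muscarinic acetylcholine receptor coupled to Gq, ranged from 163 to 433 CPM (median 303) in Drd2+ and from 0.849 to 26.7 (median 8.36) in Drd1+ libraries. It was the only called gene of the 4 tested, at 27.2-fold, out of 13 muscarinic and nicotinic receptors listed. Chrm1, with the same coupling, had 55.3 ± 6.77 and 54.0 ± 8.79 CPM. Chrm4, another muscarinic receptor, was not among the genes tested.

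Serotonin receptors were split between the clusters. Htr7 and Htr4, both coupled to Gs, were 19.9-fold and 5.84-fold higher in Drd2+ neurons, in 32 of 32 mice each, with Htr7 at 8.92 ± 3.70 against 0.368 ± 0.467 CPM. Htr2c was 1.37-fold higher in Drd2+ and Htr1f, coupled to Gi, 3.47-fold higher in Drd1+ neurons (156 ± 40.2 against 45.5 ± 19.9 CPM, no overlap). Of 9 serotonin receptors tested, 4 were higher in Drd2+, 2 in Drd1+ neurons and 3 were not called (66.7% called against 31.5% of all genes). Among 22 orphan and other peptide receptors, 9 were higher in Drd2+ and 12 in Drd1+ neurons (95.5% called), 4 and 6 of them at least 2-fold. Over all genes tested, 0.762% and 0.905% changed that much in the same order. Gpr52 and Gpr6, orphan receptors that raise cyclic AMP, were 15.1-fold and 11.8-fold higher in Drd2+ neurons. Gpr139 was 9.66-fold higher in Drd1+ neurons (19.2 ± 8.59 against 1.81 ± 1.51 CPM), as were Hrh2, the histamine H2 receptor (2.82-fold), Npy1r (2.78-fold) and Sstr2 (2.54-fold).

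Transcription factors held some of the largest differences, mostly to the Drd1+ side. Ebf1, a helix-loop-helix factor needed by direct pathway neurons in development, ranged from 241 to 492.8 CPM (median 379) in Drd1+ and from 1.72 to 21.3 (median 6.95) in Drd2+ libraries. At 50.6-fold (log2 fold change -5.66, SE 0.082) it had the largest change of all 11937 genes tested. The zinc finger factor Zfp521 and the LIM homeodomain factor Isl1 were 21.3-fold and 21.1-fold higher in Drd1+ neurons. Ikzf1 (15.1-fold), Tox (6.02-fold), Eya1 (4.24-fold) and Onecut2 (2.85-fold) followed on that side. Higher in Drd2+ neurons were Sp9 (6.94-fold), a zinc finger factor needed for indirect pathway neurons, Ikzf2 (4.63-fold), Meis1 (2.48-fold) and Zfhx3 (2.02-fold). Of 53 transcription factors tested, 23 were higher in Drd2+, 17 in Drd1+ neurons and 13 were not called. Thus 75.5% were called, against 31.5% of all genes. A change of at least 2-fold was seen for 4 and 8 of them, against 0.762% and 0.905% of all genes. Ikzf1 and Ikzf2, related factors of the Ikaros family, therefore lay on opposite sides.

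Foxp2 was the only gene of the list shared by all projection neurons with a change of at least 2-fold. It ranged without overlap, at 995 ± 92.1 CPM in Drd1+ and 421 ± 83.3 in Drd2+ neurons, a 2.39-fold change, while its relative Foxp1 was 1.24-fold higher in Drd2+ neurons in 32 of 32 mice. Of the 22 shared genes, 14 were higher in Drd2+, 3 in Drd1+ neurons and 5 were not called (77.3% called against 31.5% of all genes). Their summed level was higher in Drd2+ neurons in 32 of 32 mice, with a mean log2 difference of 0.14 ± 0.0284 (SD, n = 32). Ppp1r1b, the dopamine and cyclic AMP regulated phosphoprotein DARPP-32, had 163 ± 23.2 and 162 ± 20.7 CPM and was not called.

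In the cyclic AMP cascade the cyclase and the phosphoprotein best known from the striatum were not called, and single isoforms and subunits differed. Adcy5, the main adenylyl cyclase of the striatum, had 632 ± 73.4 and 645 ± 82.1 CPM and was not called; Gnal, the olfactory type Gs subunit through which D1 and A2a signal there, was 1.13-fold higher in Drd2+ neurons. Adcy2 was 5.83-fold higher in Drd1+ neurons (33.2 ± 17.6 against 5.84 ± 4.72 CPM), as were the G protein subunits Gnb4 (3.66-fold) and Gnai1 (2.18-fold). Gnas, the ubiquitous Gs subunit, was 2.11-fold higher in Drd2+ neurons (65.8 ± 12.1 against 30.8 ± 5.91 CPM) without overlap. Of 34 genes of the cascade, 15 were higher in Drd2+, 9 in Drd1+ neurons and 10 were not called (70.6% called against 31.5% of all genes). Among 20 phosphodiesterase and cyclic GMP genes 11 were higher in Drd2+ and 4 in Drd1+ neurons (75% called). Pde4b, which breaks down cyclic AMP, was 2.41-fold higher in Drd2+ neurons and the guanylyl cyclase subunit Gucy1a1 2.58-fold, whereas Pde10a was 1.12-fold higher. Of 24 regulators of G protein and Ras signalling, 11 were higher in Drd2+ and 8 in Drd1+ neurons (79.2% called); Rasgrf2, a Ras exchange factor, was 4.49-fold and Rgs6 2.57-fold higher in Drd1+ neurons, and Rgs9, the striatal regulator, 1.06-fold higher in Drd2+ neurons.

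**Figure D3:**
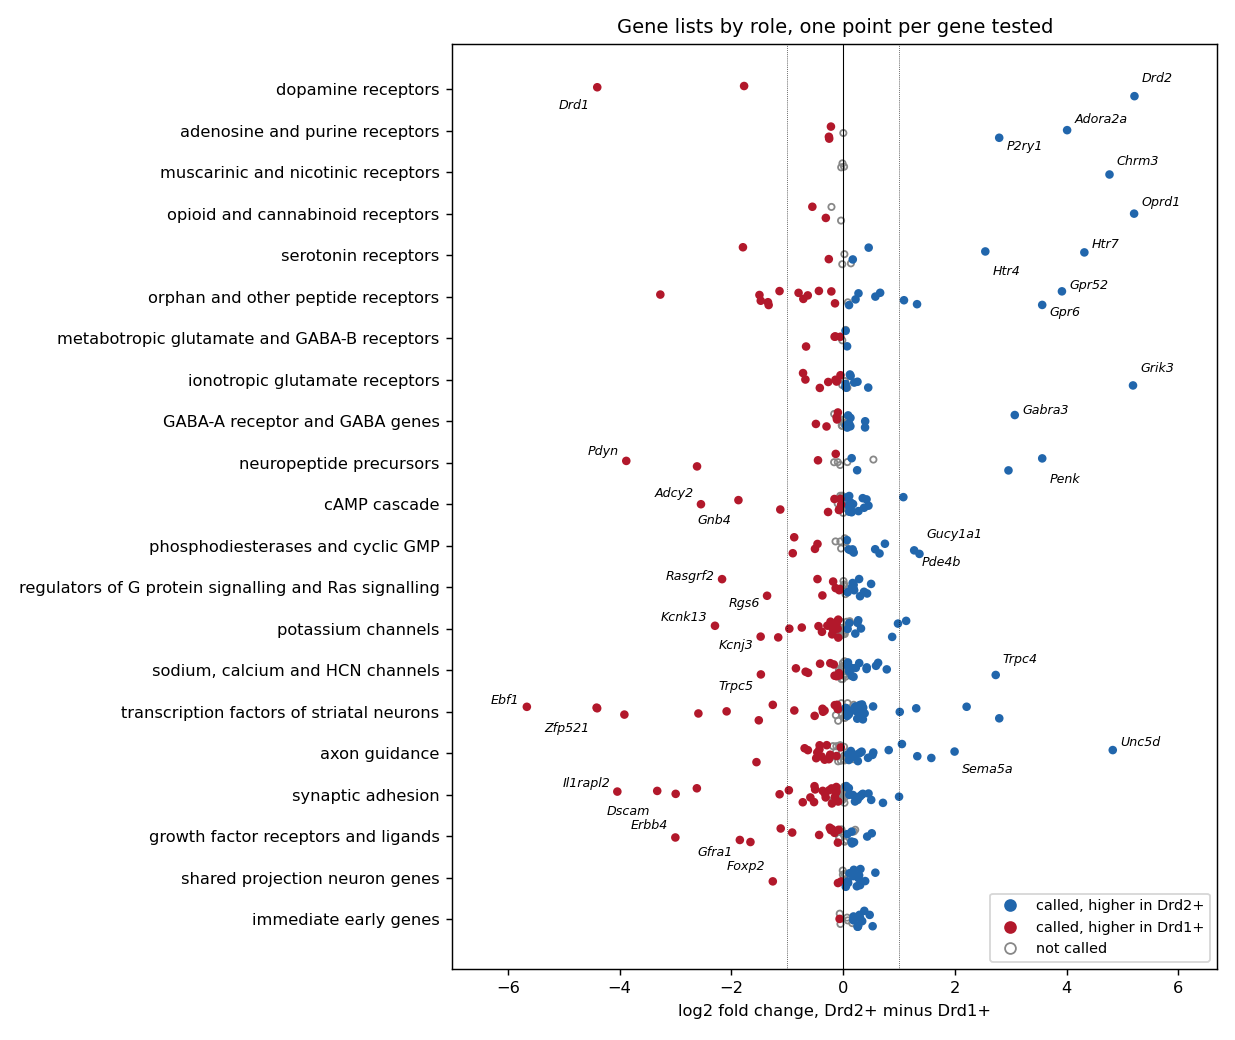
Log2 fold change (Drd2+ minus Drd1+) of each tested gene of 21 lists grouped by role; filled points were called and open points were not, and dotted lines mark a 2-fold change. Up to 2 of the most changed genes of a list are labelled. Most lists hold a few genes beyond the dotted lines, whereas no metabotropic receptor and no immediate early gene lies beyond them.

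Most ion channel genes tested were called, and most changed less than 2-fold. Over all genes tested, 0.762% and 0.905% were called at least 2-fold higher in Drd2+ and Drd1+ neurons. Of 45 potassium channel genes, 9 were higher in Drd2+, 21 in Drd1+ neurons and 15 were not called, so that 66.7% were called against 31.5% of all genes, and 1 and 3 changed at least 2-fold. Kcnk13, a two-pore domain channel, was 4.90-fold and Kcnj3, a channel opened by Gi-coupled receptors, 2.78-fold higher in Drd1+ neurons, the latter in 29 of 32 mice. Kcnd3 (2.19-fold) and Kcnk2 (1.98-fold) were higher in Drd2+ neurons. Of 40 sodium, calcium and HCN channel genes, 15 were higher in Drd2+ and 11 in Drd1+ neurons (65% called). Of these, 1 and 1 changed at least 2-fold. The cation channels Trpc4 and Trpc5 went in opposite directions, with Trpc4 6.64-fold higher in Drd2+ (56.1 ± 12.9 against 8.38 ± 4.44 CPM, no overlap) and Trpc5 2.77-fold higher in Drd1+ neurons.

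Of 20 ionotropic glutamate receptor genes 85% were called, against 31.5% of all genes, and only Grik3, a kainate receptor subunit, changed at least 2-fold, as 1.67% of all genes did. It ranged from 136 to 262 CPM (median 203) in Drd2+ and from 1.62 to 10.8 (median 5.13) in Drd1+ libraries, a 36.5-fold change with no overlap. Of 21 GABA-A receptor and GABA genes 66.7% were called and only Gabra3 changed at least 2-fold (24.98 ± 5.81 against 2.94 ± 1.30 CPM, 8.41-fold higher in Drd2+ neurons). Gad1, which makes GABA, was 1.31-fold higher in Drd2+ neurons in 32 of 32 mice, whereas Gad2 was not called (170 ± 22.1 and 169 ± 23.0 CPM). Among 8 metabotropic glutamate and GABA-B receptors tested 75% were called and no gene reached 2-fold; Grm5 was 1.05-fold higher in Drd2+ neurons.

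Axon guidance and adhesion genes differed in both directions. Of 48 guidance genes, 18 were higher in Drd2+, 14 in Drd1+ neurons and 16 were not called (66.7% called against 31.5% of all genes), with 5 and 1 at least 2-fold. Unc5d, a netrin receptor, ranged from 92.0 to 363 CPM (median 199) in Drd2+ and from 2.72 to 14.6 (median 6.62) in Drd1+ libraries, and its relative Unc5c was 2.99-fold higher in Drd2+ neurons, without overlap in either. Sema5a (3.99-fold), Ntng1 (2.51-fold) and Sema3e (2.07-fold) were higher in Drd2+ and the repulsive ligand Slit1 2.93-fold higher in Drd1+ neurons. Of 55 synaptic adhesion genes, 15 were higher in Drd2+ and 23 in Drd1+ neurons, with 1 and 5 at least 2-fold (69.1% called). For both lists the shares of all genes at least 2-fold higher in Drd2+ and Drd1+ neurons were 0.762% and 0.905%. Il1rapl2 (16.5-fold), Dscam (10.0-fold), Cntnap5c (7.98-fold) and Cntnap3 (6.14-fold) were higher in Drd1+ neurons. Nrxn2, a presynaptic adhesion protein, was 2.00-fold higher in Drd2+ neurons (94.5 ± 11.4 against 47.0 ± 8.87 CPM), without overlap.

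Lingo2, a leucine-rich repeat membrane protein, ranged from 1812 to 3114 CPM (median 2438) in Drd1+ and from 16.2 to 109 (median 53.8) in Drd2+ libraries, a 45.5-fold change. Erbb4, the neuregulin receptor, ranged from 193 to 517 CPM (median 344) in Drd1+ and from 9.67 to 115 (median 37.6) in Drd2+ libraries. Its ligand Nrg3 was 3.16-fold higher in Drd1+ neurons (2118 ± 460 against 698 ± 252 CPM), while the ligand Nrg1 was within 1.05-fold. Gfra1, the receptor of GDNF, was 3.60-fold and Reln, the extracellular protein reelin, 2.17-fold higher in Drd1+ neurons. Of 29 growth factor genes tested, 7 were higher in Drd2+ and 12 in Drd1+ neurons (65.5% called against 31.5% of all genes). All 4 with a change of at least 2-fold were higher in Drd1+ neurons, as were 0.905% of all genes. Other genes with large differences to the Drd2+ side were Ptprm, a receptor tyrosine phosphatase (24.9-fold), Nell1, a secreted protein (22.7-fold), Alk, a receptor tyrosine kinase (13.97-fold), Plxdc1 (9.38-fold), Necab1, a calcium binding protein (8.74-fold), and the noncoding A830012C17Rik (8.73-fold). To the Drd1+ side they were Adarb2, an RNA editing enzyme relative (17.7-fold), Slc35d3, a nucleotide sugar transporter relative (14.7-fold), and Sntg2, a syntrophin (8.42-fold).

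The 30 genes with the largest changes, 15 in each direction, were taken from called genes with the same sign in all mice and a mean of at least 20 CPM on the higher side, so their calls and directions follow from the choice. The ranges of the 2 clusters did not overlap for 29 of the 30, Cntnap5c being the exception, against 0.586% of all genes tested. The choice by size and sign favours such separation. The mean on the low side lay above the level in oligodendrocytes for 7 of the 15 genes higher in Drd2+ neurons. The same held for 5 of the 15 higher in Drd1+ neurons. These counts depend on the reference cell type. Lingo2, at 53.9 CPM in Drd2+ neurons, lay below oligodendrocytes (75.4) but above astrocytes (13.3). Plxdc1, at 4.19 CPM in Drd1+ neurons, lay above oligodendrocytes (3.53) but below astrocytes (5.08). A smaller cluster that the authors also named for Drd1, with 1506 nuclei, held 184 CPM of Drd1, 612 of Tac1, 706 of Lingo2 and 2626 of Adarb2, and 20.01 CPM of Drd2, 14.5 of Adora2a and 8.00 of Gpr6. It also held 893 CPM of Ptprm, 580 of Alk and 842 of Necab1, and 15.04 of Ebf1 and 1.24 of Isl1. On the scale of log2(CPM + 1) it lay nearer to the Drd1+ than to the Drd2+ cluster for 11 of the 15 genes higher in Drd1+ and for 6 of the 15 higher in Drd2+ neurons. These genes were picked after their values were seen, and its nuclei did not enter the comparison.

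Each batch alone, with 8 mice of its own pool, gave 168 to 205 genes called with at least a 2-fold change. Of the 199 genes, which were chosen on the same mice together, 155 were tested in every batch alone and 130 were called at 2-fold in every batch, 59 higher in Drd2+ and 71 in Drd1+ neurons. Between batches, 449 pairs of nuclei of the 2 clusters shared a barcode, and in 58 of these (12.9%) both nuclei were of the same strain.

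Immediate early genes, transcribed soon after neuronal activity, differed by small amounts. Of 18 tested, 12 were higher in Drd2+, 1 in Drd1+ neurons and 5 were not called (72.2% called against 31.5% of all genes; 15.7% of all genes were higher in Drd2+ neurons), and the median log2 fold change was 0.22, against 0.003 over all genes. Fosb (1.44-fold), Fos (1.39-fold), Nr4a1 (1.30-fold), Npas4 (1.23-fold) and Egr1 (1.20-fold) were higher in 23, 27, 27, 25 and 28 of 32 mice. Homer1, with the most counts of the list at 650 ± 147 and 622 ± 141 CPM, was 1.04-fold higher in Drd1+ neurons, and the summed level of all 22 listed genes was higher in Drd2+ neurons in 20 of 32 mice, with a mean log2 difference of 0.017 ± 0.149 (SD). Of the 13 mitochondrial transcripts, 12 were higher in Drd2+ neurons (92.3% called) with a median log2 fold change of 0.11, and none reached 2-fold; oligodendrocytes held 43329 CPM of these against a median of 15336 and 14650. The part of the lower UMI count and of RNA from other nuclei in these small differences was not tested.

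Genes of the patch and matrix compartments, into which the striatum is also divided, showed no common direction. Of 9 patch genes, 3 were higher in Drd2+, 2 in Drd1+ neurons and 4 were not called (55.6% called), and of 8 matrix genes 5, 2 and 1 (87.5% called), against 31.5% of all genes. Apart from Tac1 none of them changed at least 2-fold. Malat1, Celf2, Rbfox1, Nrg1 and Fgf14 were taken as the most abundant nuclear encoded genes within 0.1 on the log2 scale. Their small differences, at most 1.06-fold, follow from that choice, yet all 5 were called. Celf2 was higher in Drd2+ neurons in 32 of 32 and Fgf14 in 1 of 32 mice.

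The pathway difference varied with strain for 623 genes (5.22%) in a test of strain by cluster interaction (adjusted p under 0.05), among them 86 of the 199 genes of at least 2-fold and 11 of the 30 with the largest changes. The number was 85 without the mouse as block and 403 to 478 without 1 batch. Drd1, Drd2, Adora2a, Tac1 and Pdyn were not among the 623. In each strain fitted alone, Drd2 lay between 4.64 and 5.55 and Drd1 between -4.62 and -3.95 on the log2 scale. Cntnap3, a contactin-associated adhesion protein, had the largest interaction F of the 30. It was at 7.60 ± 3.32 CPM in Drd2+ neurons of C57BL/6 and 10.9 ± 4.72 of PWK/PhJ mice (SD, n = 4) but at 22.3 to 46.1 in the means of the other 6 strains. The log2 difference was -4.84 ± 0.667 in C57BL/6 and -4.52 ± 0.497 in PWK/PhJ, and between -2.64 and -1.78 in the others. Cntnap5c ranged from a log2 difference of -4.40 ± 0.110 in WSB/EiJ to -2.05 ± 0.348 in C57BL/6 mice, with Drd1+ means between 40.9 CPM in 129S1/SvImJ and 455 in CAST/EiJ. Reads of such paralogs may be split between them, which was not tested.

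Penk differed less between the clusters in A/J mice, at a log2 difference of 2.31 ± 0.329, than in the other 7 strains, at 3.41 to 4.01. In A/J the Drd1+ level was 193 ± 31.8 CPM against 77.6 to 116 in the others, while the Drd2+ level was 998 ± 359 against 1132 to 1426 CPM. A830012C17Rik, a noncoding gene 9214 bases from Penk on chromosome 4, had a log2 difference of 1.36 ± 0.496 in A/J and of 2.84 to 4.08 in the other strains, with 6.92 ± 2.82 CPM against 0.569 to 2.55 in Drd1+ neurons. These differences are means of per-mouse values with a prior count of 2. In edgeR fits of each strain alone, those of A830012C17Rik ranged from 1.32 to 5.11. Plxdc1 differed least in CAST/EiJ mice (1.84 ± 0.520) and most in NOD/ShiLtJ (3.83 ± 0.893). Mean values of 4 mice are given; single strain pairs were not tested.

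**Figure D4:**
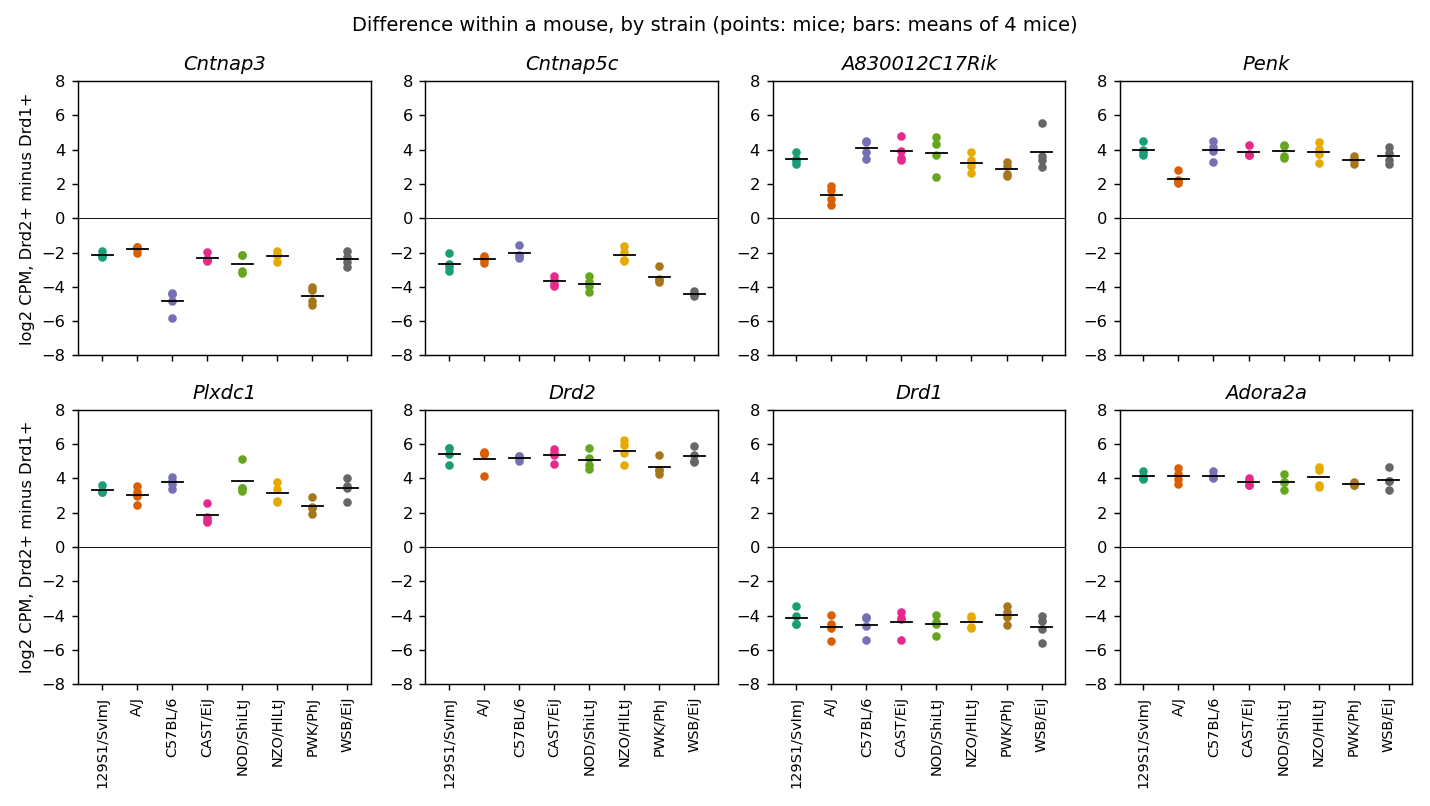
Log2 difference (Drd2+ minus Drd1+) within each mouse by strain. Panels are the 5 genes of the 30 with the largest interaction F, and Drd2, Drd1 and Adora2a. Points are mice and bars are means of 4. Cntnap3 lies lower in C57BL/6 and PWK/PhJ, and Penk and A830012C17Rik lie nearer to 0 in A/J.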

How the data were processed

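Nuclear RNA and open chromatin of 4 pools of 8 mice were read with the 10x Multiome assay. The deposited matrices hold raw counts of unique molecules per gene and nucleus; the submitters' processing notes name bcl2fastq 2.20.0.422, Cell Ranger ARC 2.0.0 and the builds mm10 and GRCm38, without their roles, and strand use in counting is not given in the sources used here. Per the deposited table's description, the authors removed doublets and low-quality nuclei, and assigned mice and clusters. No further filter on nuclei was set, and no doublet caller was run.

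Counts were summed per mouse and cluster. Main test: edgeR 4.0.16 (R 4.3.3) quasi-likelihood with TMM scaling, filterByExpr, robust fit and mouse as block, with Benjamini-Hochberg adjustment over 11937 genes. Per-mouse log2 values used a prior count of 2, while fold changes came from the edgeR fit with its own default prior. CPM is the count divided by the library total of the tested genes, scaled by edgeR factors, on the usual scale; sums of lists, marker sums and levels in other clusters use all counts of the library. Lists, members and rules were chosen with earlier results of these data known. Named genes were the 15 largest changes per direction among called genes with a mean of at least 20 CPM on the higher side and the same sign in all mice, any gene of the fixed lists, the 5 most abundant genes within 0.1 on the log2 scale, and the 5 of the 30 with the largest interaction F. On simulated data with 200 changed genes of 11937, 99% of those changed 1.5-fold and 100% of those changed 2-fold were recovered. In the simulated data 3.40% of calls were false. Recovery of smaller differences, or of differences that vary with strain, was not tested.

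Both libraries of a pair share mouse and batch. Deviations from the cluster means correlated at 0.480 to 0.762 within a mouse (median 0.618), against a median of 0.413 between mice of 1 strain. Mice of 1 strain came from different batches, so the parts of mouse and batch cannot be told apart. On principal components of the 64 libraries, strain took 58.8% and cluster 40.1% of the variance of the first (15.7% of the total), and strain 42.0% and cluster 57.4% of the second (13.9%). Alternatives were DESeq2 1.42.0, other scaling and filters, no mouse block (strain and batch kept), leaving out batches or strains, equal nuclei and equal depth. Open chromatin was not used here.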

Additional observations from a re-analysis of the deposited data

Results flagged for a closer look

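For 5 of the 30 genes with the largest pathway difference, the difference between Drd2+ and Drd1+ neurons itself differed most between strains, by the interaction test. The F values (7 degrees of freedom) were 40.9 for Cntnap3, 34.1 for Cntnap5c, 22.7 for A830012C17Rik, 12.7 for Penk and 10.6 for Plxdc1, with edgeR adjusted p of 3.74e-11, 2.18e-11, 4.21e-17, 6.13e-05 and 2.96e-08. They were picked by F from 30 genes, so these values describe a choice.

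In CAST/EiJ mice the median UMIs per nucleus of Drd2+ relative to Drd1+ neurons was -0.195831, -0.195717 and -0.19305 on the log2 scale in 3 mice and -0.0753 in the mouse of batch 4, which stood apart. Chance gives about 1 in 20 such groups, and 1 of the 32 groups of 4 mice examined stood apart.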

How the results depend on the processing

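The 30 genes with the largest changes kept direction and call in 690 of 690 comparisons over 23 alternatives, which says little since they were chosen as called and of the same sign in all mice. Of 405 genes of the lists, 7 single values changed sign, all with 1 batch alone: Calb1 -0.0284, Egr4 -0.0159, Rapgef2 -0.0080, Slit2 -0.0651, Slitrk3 0.0252, Gabbr2 0.0047 and Kcnh5 0.0034; 763 of the other values lost their call. The number of called genes was 3764 with all data and 1842, 1602, 1235 and 1511 with batches 1 to 4 alone. It was 3038 to 3413 without 1 batch, 3133 with DESeq2 and 3040 without the mouse as block. Strain and batch stayed in the model without that block. The count of at least 2-fold was 168 to 210 in all alternatives but 1: without a filter on low counts it was 458. The share of calls higher in Drd2+ neurons, 49.7% with all data, is close to even. It crossed 50% at equal depth (50.7%) and without PWK/PhJ (50.8%). It was 42.6% without the filter, 48.2% without the mouse as block, and 48.0%, 46.9% and 47.2% in batches 1 to 3 alone. Without 129S1/SvImJ it was 48.6%, without A/J 48.4% and without 1 batch 46.9% to 49.4%. The mitochondrial percent of counts was higher in Drd2+ by 0.0473, 0.0566 and 0.124 points in batches 2 to 4 alone, where exact permutation p were 0.203, 0.0703 and 0.0781. Genes whose pathway difference varied with strain numbered 623, 85 without the mouse as block and 403 to 478 without 1 batch. No other call of the counts and per-mouse measures was changed. The causes were not tested.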

Other observations

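Some genes with large pathway differences lay next to each other. With positions from RefSeq (GRCm38.p6), 37 of 190 genes called at 2-fold or more had another such gene within 100 kb (19.5%), against 246 of 11104 other tested genes (2.22%). Of 20 such pairs 19 differed in the same direction. Overlapping genes made up 7 pairs, among them Nrg3 with Nrg3os and Ptprm with 1700016K05Rik, and their reads cannot be told apart without strand. Of 13 pairs that do not overlap, 12 had the same direction. Their gaps ran from 28 bases (Trpc5 and Rtl4) to 87863 (Il20ra and Slc35d3). The part of reads running past the end of a gene was not tested. This listing was made after the values were seen.

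Beside Drd2, Ankk1 lay 7016 bases away and was 23.5-fold higher in Drd2+ neurons (8.41 ± 3.71 against 0.348 ± 0.437 CPM). Beside Drd1, Sfxn1 lay 15997 bases away and was 3.50-fold higher in Drd1+ neurons, and Hrh2, 83623 bases beyond Sfxn1, was 2.82-fold higher there. Adora2a was followed by Upb1 (22.1-fold) and Gucd1 (2.28-fold) on the Drd2+ side, Slc35d3 by Il20ra (35.1-fold) on the Drd1+ side, and Penk by A830012C17Rik. Cbfa2t3 and C230057M02Rik, 25611 bases apart, were the pair of opposite directions, with log2 fold changes of -1.07 and 1.71.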
